A study of Paxillus involutus ATCC 200175 with 12 samples.

Results

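The response of glucose-fed mycelium to ammonium was examined in 6 of the 12 arrays of the study: 3 arrays of mycelium kept on organic matter with glucose (OM+G) and 3 arrays of mycelium kept on organic matter with glucose and ammonium (OM+N+G). The arrays were chosen by their titles alone. All 12 samples were mycelium of Paxillus involutus ATCC 200175, grown axenically over glass beads for 9 days on Minimum Melin Norkrans medium, starved of nitrogen for 24 h and then given, for 7 days, an extract of maize compost made with hot water. The extract had been passed through a 0.2 um filter and freed of low molecular weight compounds by ultrafiltration at 10 kDa, so every group, OM+G included, carried the same nitrogen starvation and the same extract. The other 6 arrays held mycelium on the extract alone (OM) and on the extract with ammonium (OM+N), 3 of each. How much glucose and how much ammonium was added is not stated in the labels. All samples were of 1 strain, grown without a plant partner.

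Paxillus involutus is a basidiomycete that forms ectomycorrhiza, a sheath of hyphae around tree root tips through which the tree receives nitrogen and other nutrients and the fungus receives sugars. In fungi in general, ammonium is a preferred nitrogen source, and its presence lowers the transcripts of many transporters and enzymes that serve less preferred sources, a control known as nitrogen metabolite repression. Ammonium taken up is built into glutamate and glutamine on carbon skeletons that come from sugar metabolism, so carbon and nitrogen supply meet in the same reactions. The comparison of OM+N+G with OM+G asks which transcripts answer to ammonium when carbon is supplied.

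The array carried 12214 features, each of them summarised to 1 value per array on the log2 scale by the robust multi-array average (RMA). The features bear running numbers (paxillus_1 and so on) that the files do not pair with genes, and 0 of them matched an entry among the 18033 genes of the reference table of this strain (assembly Paxillus involutus ATCC 200175 v1.0). No function is therefore given to any feature below, and no pathway could be counted. Array medians of the 6 arrays lay between 11.74 and 11.76, and interquartile ranges lay between 1.25 and 1.27 in both groups. In the OM and OM+N arrays the interquartile ranges were narrower, between 1.06 and 1.12. What this does to the sizes of changes without glucose was not tested on its own. Across features, arrays correlated with r between 0.997 and 0.999 within OM+G, between 0.996 and 0.997 within OM+N+G, and between 0.992 and 0.996 across the groups. OM+G occupied subarrays 7 to 9 of the slide and OM+N+G subarrays 10 to 12, so ammonium and position on the slide cannot be told apart in any result below. OM occupied subarrays 1 to 3 and OM+N subarrays 4 to 6. Ammonium thus held the later subarrays in both comparisons, and glucose and position cannot be told apart either. The design text can be read as 3 cultures per group, and the p-values then reflect differences among cultures and among subarrays alike.

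In glucose-fed mycelium 362 features were higher and 235 lower with ammonium, together 597 of the 12214 tested (4.89%, with 2.96% upward and 1.92% downward, at a Benjamini-Hochberg adjusted p under 0.05 by limma). Most of these changes were small. The median rise was 0.40 on the log2 scale (1.32-fold) and the median fall was of 0.42 (1.33-fold). The tail was longer downward: 10% of the falls exceeded 1.94-fold, against 1.59-fold for the rises. Of the 235 falls, 21 (8.94%) reached a log2 size of 1, against 8 of the 362 rises (2.21%). A further 115 rises and 61 falls lay between 0.5 and 1, and 219 rises and 138 falls between 0.25 and 0.5. The smallest called changes had a log2 size of 0.20 in both directions.

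**Figure D1:**
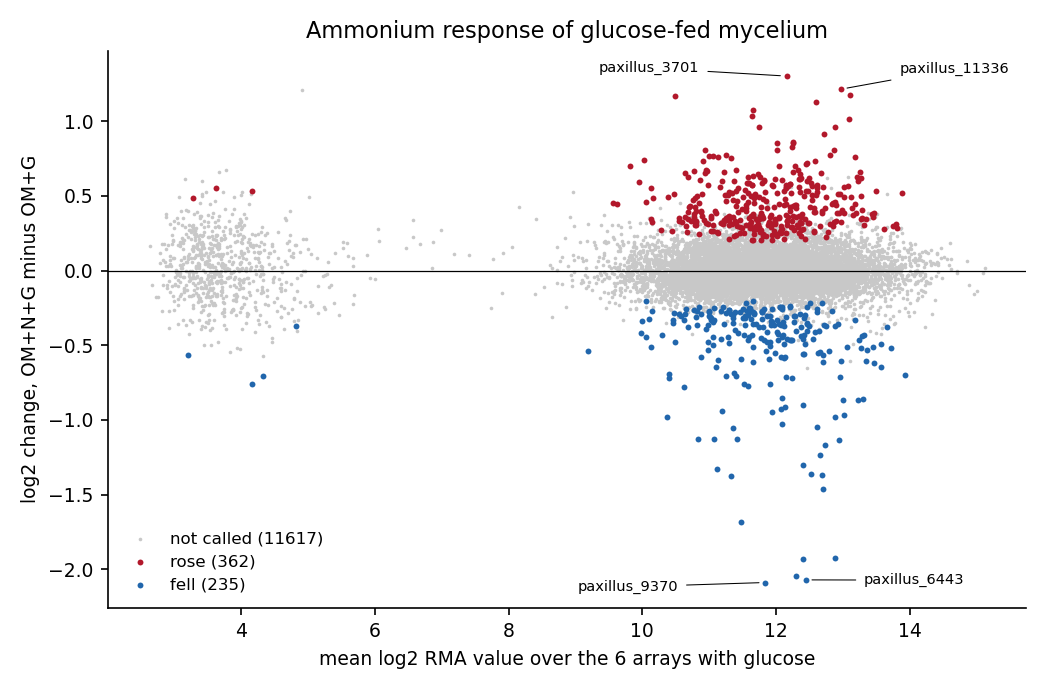
Log2 change from OM+G to OM+N+G of each of the 12214 features (vertical axis) against its mean log2 RMA value over the 6 arrays with glucose (horizontal axis), with called rises in red, called falls in blue and other features in grey. The falls reach a log2 size of 2.09 and the rises 1.30, and few calls lie among the dim features at the left.

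The 3 arrays of OM+N+G lay wholly above those of OM+G for 1646 features and wholly below them for 1664, together 27.1% of all features. The called features did so in 360 of 362 rises and in all 235 falls, as their selection favours. At an unadjusted p under 0.05 by limma, 1962 features passed, 1101 upward and 861 downward. The median change over all features was -0.01. The standard error of a change had a median of 0.08, and the 95% interval reached 0.17 to either side at that median. Among the 11617 features not called, the 95% interval lay inside a log2 size of 0.5 for 10895 (93.8%) and inside 0.25 for 5932 (51.1%). For nearly all features that were not called, a change of 0.5 or more lay outside the interval, while a change of 0.25 lay inside it for many.

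The largest rise was that of paxillus_3701. Its log2 values in replicates 1 to 3 were 11.50, 11.47 and 11.56 in OM+G and 12.78, 12.86 and 12.79 in OM+N+G. Both groups were tight and lay far apart. The difference was 1.30 on the log2 scale (SE 0.08, 2.47-fold, limma adjusted p = 3.53e-06). Without glucose the same feature stayed low with and without ammonium, at 11.24, 11.47 and 11.40 in OM and 11.25, 11.43 and 11.54 in OM+N. Only the OM+N+G arrays were high.

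The next largest rise was that of paxillus_11336. It stood at 12.32, 12.38 and 12.39 in OM+G and at 13.59, 13.54 and 13.61 in OM+N+G, a difference of 1.21 (SE 0.09, 2.32-fold, limma adjusted p = 9.47e-06). In this feature the arrays without glucose showed nearly the same step, from 12.75, 12.33 and 12.59 in OM to 13.55, 13.71 and 13.68 in OM+N. The step without glucose was 1.09 (SE 0.09), and the difference between both steps was 0.12 with a 95% interval from -0.15 to 0.39.

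The largest fall was that of paxillus_9370, from 12.98, 13.03 and 12.63 in OM+G to 10.92, 10.72 and 10.75 in OM+N+G. The log2 change was -2.09 (SE 0.16, limma adjusted p = 1e-05), a 4.25-fold lower level with ammonium. Replicate 3 of OM+G was the lowest of its group, and the groups still lay far apart. OM arrays were intermediate and spread, at 11.77, 12.29 and 11.47, and OM+N arrays lay at 10.99, 11.06 and 11.10. Both groups with ammonium were therefore low, and OM+G was the highest group.

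The next largest fall was that of paxillus_6443. It lay at 13.47, 13.49 and 13.48 in OM+G and at 11.50, 11.52 and 11.21 in OM+N+G, a change of -2.07 (SE 0.15, 4.20-fold, limma adjusted p = 9.47e-06). In OM it stood at 13.13, 13.32 and 12.94, and in OM+N at 11.53, 12.26 and 11.79. The 2 groups with ammonium were low and both groups without it were high, whether or not glucose was given. The change without glucose was -1.27 (SE 0.15). The difference between both changes was -0.80 and did not pass the test (limma adjusted p = 0.156), but passed in 3 of 21 alternatives.

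**Figure D2:**
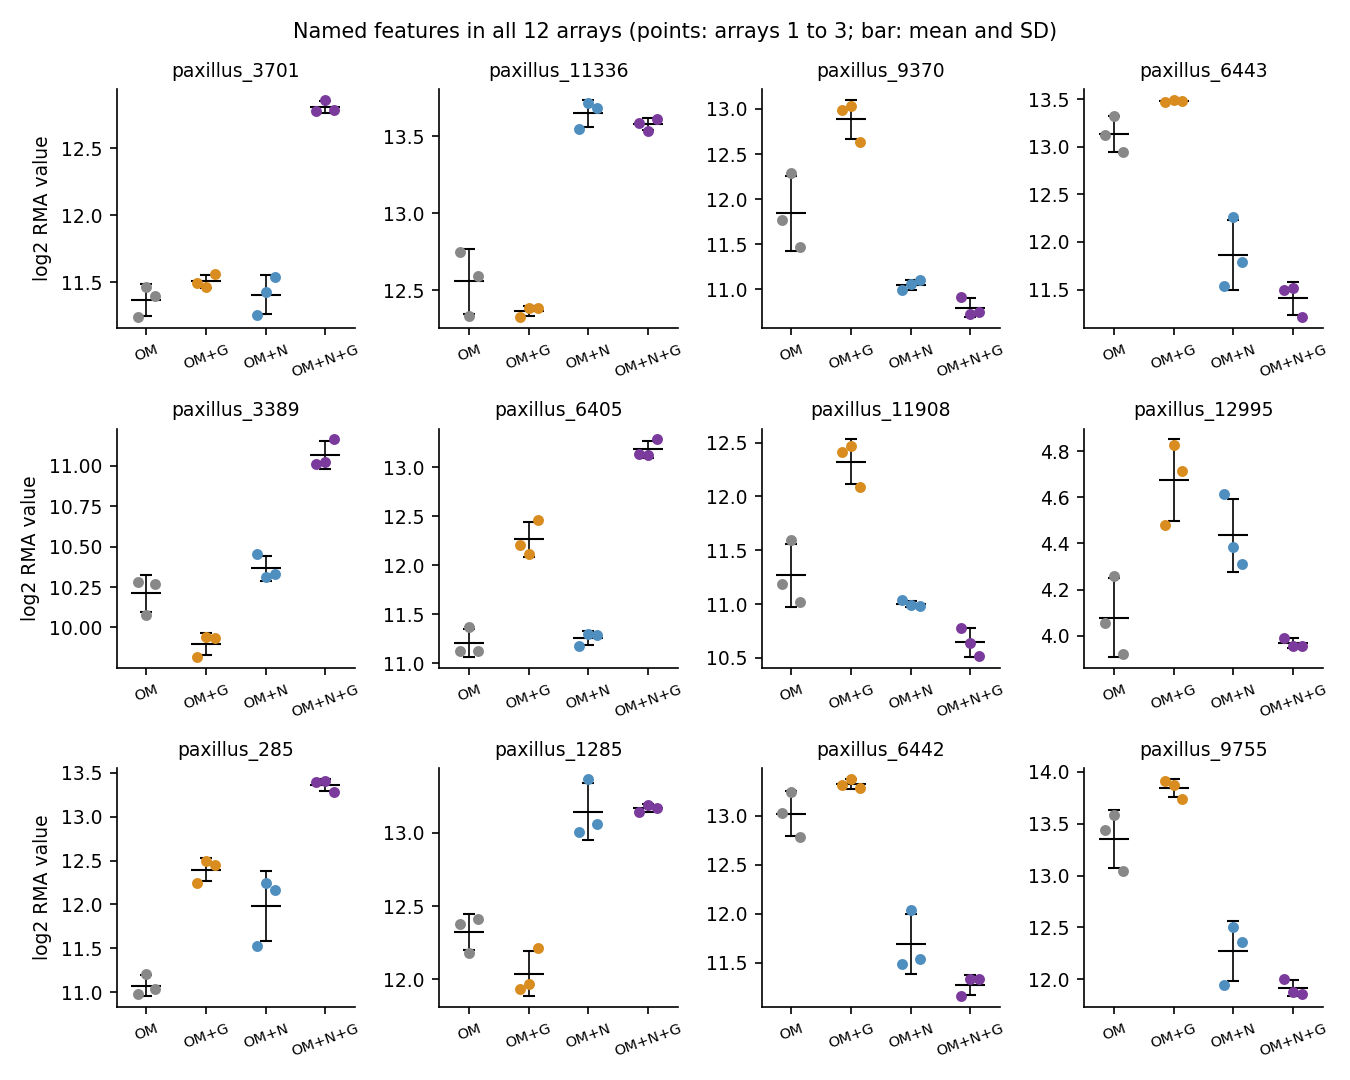
Log2 RMA values (vertical axes, each with its own range) of the 12 features described in the text in the 4 groups, with a point for each array and a bar for the mean and SD (n = 3). The first row holds the largest rises and falls, the second row features whose ammonium response differed with glucose, and the third row features called in both ammonium comparisons.

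A further 4 features were named because ammonium changed them in the same direction with and without glucose, in comparisons whose means share no array. Without the features named before them in the same rule, 5 rises and 18 falls met that condition. Each was ranked by the smaller of its changes, and the first 2 of each direction were taken. paxillus_1285 rose from 11.93, 11.97 and 12.22 in OM+G to 13.14, 13.19 and 13.17 in OM+N+G, by 1.13 (SE 0.10, 2.19-fold, limma adjusted p = 2.99e-05). In OM it lay at 12.37, 12.18 and 12.41 and in OM+N at 13.00, 13.37 and 13.06. Its levels with ammonium were alike at both glucose states, with means of 13.14 ± 0.20 for OM+N and 13.17 ± 0.02 for OM+N+G (SD, n = 3).

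paxillus_285 lay at 12.25, 12.50 and 12.45 in OM+G and at 13.39, 13.41 and 13.28 in OM+N+G, a rise of 0.96 (SE 0.15, 1.95-fold, limma adjusted p = 0.00187). The rise without glucose was 0.91 (SE 0.15), from 10.98, 11.21 and 11.03 in OM to 11.52, 12.25 and 12.17 in OM+N. This feature also lay higher with glucose, by 1.32 without ammonium and by 1.38 with it (log2, SE 0.15 each). OM was its lowest group and OM+N+G its highest.

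paxillus_6442, the neighbour of paxillus_6443 in the numbering, fell from 13.31, 13.38 and 13.28 in OM+G to 11.16, 11.34 and 11.33 in OM+N+G. The change was -2.05 (SE 0.14, 4.13-fold, limma adjusted p = 6.09e-06), against -1.33 (SE 0.14) between OM and OM+N. paxillus_9755 fell from 13.91, 13.87 and 13.74 to 12.00, 11.88 and 11.86, by 1.93 on the log2 scale (SE 0.14, 3.80-fold, limma adjusted p = 9.47e-06). Without glucose it fell by 1.08 (SE 0.14). Both features had a larger fall with glucose present, and the difference between the falls did not pass the test (-0.72 with a limma adjusted p of 0.157 for paxillus_6442, and -0.84 with 0.0980 for paxillus_9755). Without OM replicate 2 and OM+N replicate 1, arrays that stand apart within their groups, the differences were -0.93 and -1.12 and passed (limma adjusted p = 0.0386 and 0.00606). Most alternatives left the differences uncalled, in 19 of 21 for paxillus_6442 and in 17 of 21 for paxillus_9755. After quantile normalization they were -0.49 and -0.72 (limma adjusted p = 0.368 and 0.197).

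Whether the ammonium change itself depended on glucose was tested as the difference between both ammonium changes, for all features. The difference was called for 90 features (0.737%), 46 of them positive and 44 negative, and 1535 had an unadjusted p under 0.05 by limma. That test uses the OM+G and OM+N+G arrays again, so it is given beside the changes themselves and not as separate evidence for them. The count depended on the arrays: it was 37 when OM replicate 1 was left out and 38 when OM+N replicate 3 was. Leaving out OM+G replicate 1 gave 28 and leaving out OM+G replicate 2 gave 25. Leaving out OM+N+G replicate 1 gave 53, and OM+N+G replicate 3 gave 48. Quantile normalization gave 59.

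Among the features called in both tests and not yet named, paxillus_3389 had the most positive difference. It rose from 9.82, 9.94 and 9.94 in OM+G to 11.01, 11.02 and 11.16 in OM+N+G, by 1.17 (SE 0.07, 2.25-fold, limma adjusted p = 3.81e-06). Between OM and OM+N the change was 0.15 (SE 0.07) and was not called, from 10.28, 10.08 and 10.27 to 10.45, 10.31 and 10.33. OM+G was its lowest group and OM+N+G its highest, and the difference of both ammonium changes was 1.01 (SE 0.10, limma adjusted p = 0.00121).

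paxillus_6405 had the next most positive difference, 0.87 (SE 0.13, limma adjusted p = 0.0122). Its values were 12.21, 12.12 and 12.46 in OM+G and 13.13, 13.13 and 13.28 in OM+N+G, a rise of 0.92 (SE 0.10). Without glucose it was lower and moved little, at 11.13, 11.37 and 11.13 in OM and 11.17, 11.30 and 11.29 in OM+N. This feature lay higher with glucose at both ammonium states, by 1.05 without ammonium and 1.93 with it (log2, SE 0.10 each).

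The most negative difference was that of paxillus_11908, at -1.42 (SE 0.19, limma adjusted p = 0.00648). It stood at 12.41, 12.47 and 12.09 in OM+G and at 10.78, 10.64 and 10.51 in OM+N+G, a fall of 3.21-fold (log2 -1.68, SE 0.13, limma adjusted p = 1e-05). The OM arrays lay at 11.19, 11.59 and 11.02 and the OM+N arrays at 11.03, 10.99 and 10.98, which overlap. The feature was thus high with glucose alone and lower in each of the other groups.

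paxillus_12995 had the next most negative difference, -1.06 (SE 0.15, limma adjusted p = 0.00823), but its values lay near those of the random-sequence control of the array, which were between 3.66 and 3.75 in these 6 arrays. It read 4.48, 4.83 and 4.71 in OM+G and 3.99, 3.96 and 3.95 in OM+N+G, a change of -0.71 (SE 0.11, limma adjusted p = 0.00135). Without glucose it read 4.06, 4.26 and 3.92 in OM and 4.61, 4.38 and 4.31 in OM+N. These groups did not overlap either and lay the other way round, with a change of 0.36 (SE 0.11) that was not called (limma adjusted p = 0.205), and this opposite change is part of the difference of -1.06. No detection call comes with the values, so whether this feature was above background was not tested. paxillus_9370 also passed the test of the difference (-1.30, SE 0.23, limma adjusted p = 0.0238). It no longer passed after quantile normalization (0.0950), or when any of OM replicate 1, OM+N replicate 3, OM+G replicates 1 and 2 and OM+N+G replicates 2 and 3 was left out, with limma adjusted p between 0.0548 and 0.0802.

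As lists, the features that answered to ammonium with glucose present mostly lay on the same side of 0 without glucose. The OM and OM+N arrays give the direction there, and they had entered the choice of the lists only through the estimate of the spread, which is shared by all 12 arrays. Of the 362 rises, 301 (83.1%) were higher in OM+N than in OM, where 61.3% of all 12214 features were. Of the 235 falls, 180 (76.6%) were lower in OM+N, against 38.7% of all features. The sizes without glucose were small, with a median of 0.09 for the rises and -0.11 for the falls, against 0.03 over all features. With glucose the medians were 0.40 and -0.42, and the choice of the lists by those changes favours larger sizes there. The sizes of these lists therefore do not tell whether ammonium acted less without glucose. Without OM replicate 2 and OM+N replicate 1 the shares were 76.5% of the rises against 50.0% of all features, and 77.9% of the falls against 49.9%. After cyclic loess they were 73.8% against 52.9% and 83.8% against 47.1%. In a fit to the 6 arrays with glucose alone, added after seeing the data, 404 features rose and 285 fell, of which 79.5% and 81.1% kept their sign without glucose. Among the 29 changes of at least 1, all 29 kept their sign between OM and OM+N (28 without OM replicate 2 and OM+N replicate 1), and 11 were called there in the same direction, where 0.336% of all features were called in either direction.

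**Figure D3:**
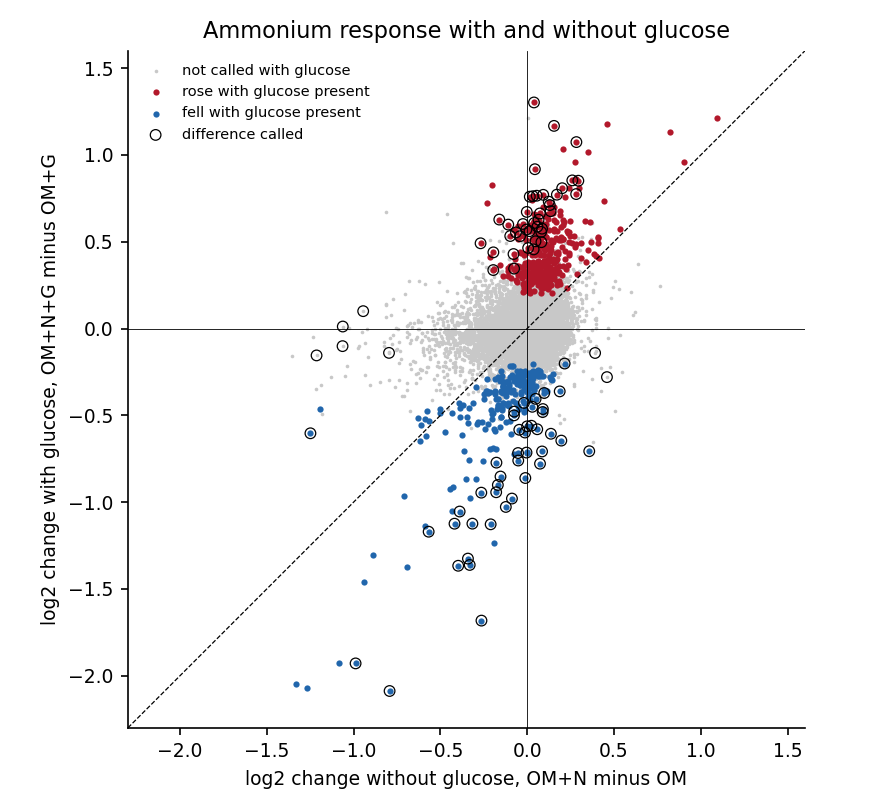
Log2 change with ammonium in the presence of glucose (vertical axis) against that in its absence (horizontal axis) for each feature, with rises and falls called in the presence of glucose in red and blue and features with a called difference circled. The dashed line marks equal changes. The called rises and falls spread mainly along the vertical axis, by which they were chosen, with medians of 0.09 and -0.11 on the horizontal one.

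The reverse view starts from the features called between OM and OM+N. These were 41 (0.336%), 11 upward and 30 downward, and the arrays of those groups did not overlap for 15.9% of all features. Leaving out OM replicate 1 gave 21 and OM replicate 3 gave 132, while OM+N replicate 2 gave 96 and OM+N replicate 3 gave 27. A fit to the 6 arrays of OM and OM+N alone called 3 features, with 1139 at an unadjusted p under 0.05 by limma. Of the 30 falls, 27 also lay lower in OM+N+G than in OM+G and 19 were called lower, against 52.0% and 1.92% of all features. Of the 11 rises, 10 also lay higher and 6 were called higher, against 48.0% and 2.96% of all features, and none of the 41 was called in the opposite direction. The 25 features called in both comparisons were 61.0% of the list without glucose and 4.19% of the list with it.

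The median level of those 30 falls was 13.44, 13.46 and 13.46 in the OM+G arrays and 12.77, 12.74 and 12.74 in the OM+N+G arrays. The arrays with and without ammonium did not overlap. In the groups whose difference chose the list, the median was 13.12, 13.30 and 12.98 in OM and 12.07, 12.43 and 12.22 in OM+N. The step in the list's median change was thus smaller with glucose (-0.50) than without it (-0.79), as the choice of the list favours. The 235 falls with glucose present, chosen by the difference between OM+N+G and OM+G, stood at 12.08, 12.08 and 12.07 in OM+G and at 11.64, 11.59 and 11.55 in OM+N+G. Their median lay between 11.80 and 11.92 in the OM arrays and between 11.64 and 11.71 in the OM+N arrays, which did not overlap either. The 362 rises stood at 11.60, 11.66 and 11.63 in OM+G and at 12.04, 12.02 and 12.10 in OM+N+G. In OM they lay between 11.50 and 11.52 and in OM+N between 11.61 and 11.65, again without overlap.

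**Figure D4:**
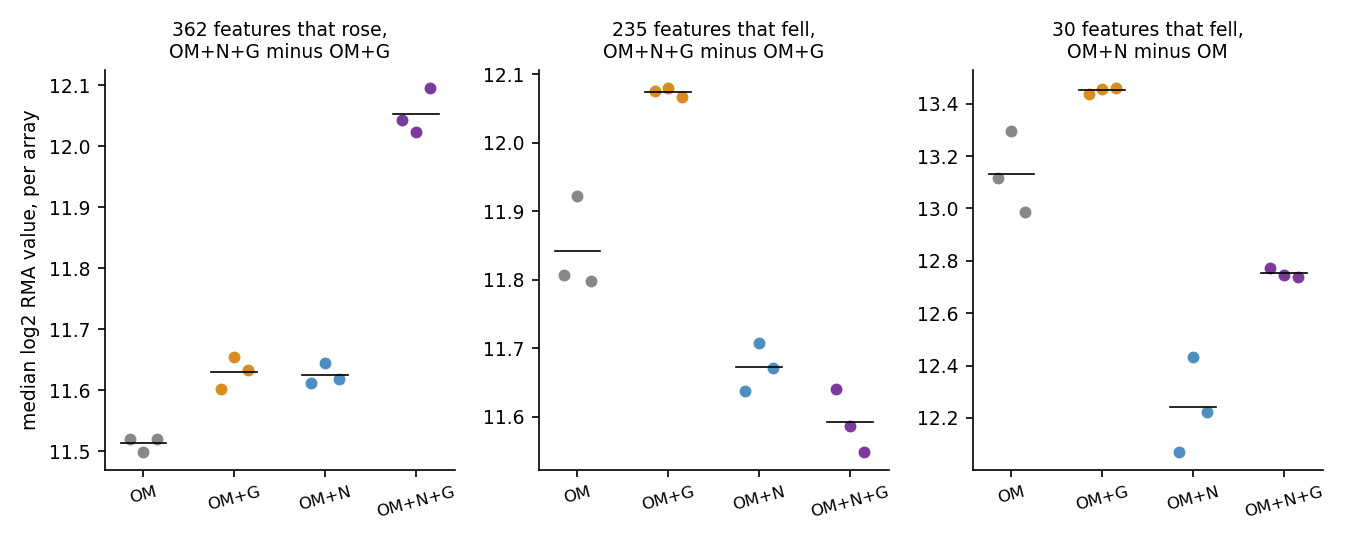
Median log2 RMA value (vertical axes) of 3 lists of features in each of the 12 arrays, with a line for the mean of the 3 arrays of a group. The left and middle lists were chosen by the difference between OM+G and OM+N+G and the right list by that between OM and OM+N; in the other pair of groups, too, the rises lie higher and the falls lower with ammonium.

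Calls were spread over the range of levels. The 11499 features whose mean over the 12 arrays reached 6 were divided into quartiles of brightness. Rises made up 3.69% of the dimmest quartile, 3.44% and 2.75% of the middle ones and 2.61% of the brightest. Falls made up 2.12%, 1.81%, 2.05% and 2.05% in the same order. From the dimmest to the brightest quartile, falls of at least 1 numbered 3, 5, 5 and 8, and rises of at least 1 numbered 1, 3, 0 and 4; no trend was tested. The median level over all arrays was 11.70 for the rises, 11.83 for the falls and 11.77 for all features.

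Features that followed a called feature in the numbering were called in the same direction more often than all features were, although most were not. The sources used here do not say what the numbering follows. Of 335 features that rose and whose next number was on the array, 38 were followed by another that rose (11.3%, against 2.96% of all features). Of 219 that fell, 24 were followed by another that fell (11.0%, against 1.92%). In 13 cases, out of the same 335 and 219 features, the next number was called in the opposite direction. That is near the shares of all features that fell (1.92%) or rose (2.96%). Over all 11427 pairs of consecutive numbers the changes correlated with r = 0.13, as a description across features that share arrays.

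The longest runs were of 4 features, and they are named after their values were seen. paxillus_5193 to paxillus_5196 rose, by 0.67, 0.76, 0.54 and 0.63 on the log2 scale (limma adjusted p between 0.000335 and 0.000748). paxillus_5883 to paxillus_5886 rose by 0.70, 0.59, 0.52 and 0.53 (limma adjusted p between 0.000267 and 0.00323). paxillus_7916 to paxillus_7919 fell, with changes of -0.59, -0.55, -0.69 and -0.29 (limma adjusted p between 0.000115 and 0.0270). The first members of the rising runs differed in the other groups. In OM+G, paxillus_5883 lay at 11.67, 11.60 and 11.84, below its OM values of 12.03, 11.96 and 12.23. There paxillus_5193 stood at 10.60, 10.66 and 10.65, against OM values of 10.56, 10.40 and 10.46. The contrast does not hold for whole runs. The means of paxillus_5884 and paxillus_5885 were also lower in OM+G (12.22 and 11.04) than in OM (12.78 and 11.48), but that of paxillus_5886 was 12.35 in both. paxillus_3389 closed a run of 3 rises with paxillus_3387 (0.81) and paxillus_3388 (0.67).

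Of the 21 falls of at least 1 among the 12214 features, 7 had a neighbour in the numbering that also fell by at least 1. Of the 8 such rises among the 12214 features 0 had, a number too small to set the directions against each other. The 7 were paxillus_6442 with paxillus_6443, paxillus_9754 (-1.14) with paxillus_9755, and the run from paxillus_4414 to paxillus_4416. paxillus_4414 lay at 11.98, 12.06 and 11.90 in OM+G and at 10.89, 10.80 and 10.88 in OM+N+G. paxillus_4415 went from 12.01, 11.81 and 11.83 to 10.93, 10.84 and 10.72. paxillus_4416 went from 12.03, 12.12 and 11.88 to 10.70, 10.67 and 10.54. The changes were -1.12, -1.05 and -1.38. The groups did not overlap for any of the 3, which held for all 235 called falls and, in either direction, for 27.1% of all features. Whether neighbouring features share sequence, so that 1 transcript could be read by several, was not tested, since no probe sequences were used here.

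The number of calls moved with the arrays that entered the fit. It fell from 597 to 326 when OM+G replicate 1 was left out, to 352 for OM+G replicate 2 and to 358 for OM+N+G replicate 3, and lay between 446 and 473 for each of the others. The 6 fits that leave out 1 array of these groups all called the same 292 of the 597 features, 169 upward and 123 downward, and these included all 29 changes of at least 1. With array weights, which give less weight to arrays that deviate, 1394 features were called, 594 of them shared with the 597. Leaving out OM replicate 2 and OM+N replicate 1 together gave 871 calls, with all 597 among them. Those arrays enter this comparison only through the shared estimate of the spread. A test against a log2 change of at least 0.25 rather than against 0 called 99 features, 48 upward and 51 downward.

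**Figure D5:**
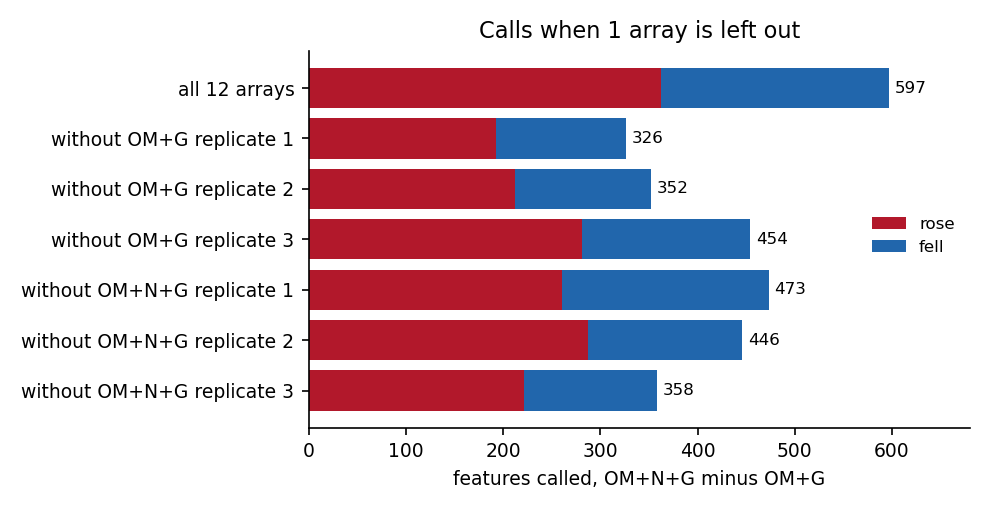
Number of features called between OM+G and OM+N+G (horizontal axis, from 0), split into rises in red and falls in blue, with all 12 arrays and with each array of the 2 groups left out in turn. The count lies between 326 and 473 when an array is left out, against 597 with all.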

How the data were processed

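Total RNA of 12 mycelium samples was converted to Cy3-labelled cDNA and hybridised to 12 subarrays of 1 NimbleGen slide, per the labels' protocols. The deposited log2 values were made by the authors with RMA, per the submitters' processing notes; the log2 scale was read from the range of the values, and neither software nor probe annotation is stated. RMA in its usual form equalises the arrays, so changes in the total amount of mRNA are not visible. The deposited count of probes per feature was 10 for 12203 features and fewer for 11. The deposited score named as an error of the expression value has no stated meaning and was not used. The series table held the same values.

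Group means were estimated from all 12 arrays together with limma 3.58.1 under R 4.3.3 (functions lmFit, contrasts.fit, eBayes; 8 residual and 4.723 prior degrees of freedom) over 12214 features, without the random-sequence control. Features were called at an adjusted p under 0.05 (Benjamini-Hochberg, per contrast), and all adjusted p-values are limma's. The script was tested on simulated data. Named features were the 2 largest rises and 2 largest falls among called features with no overlap of arrays, then 2 and 2 among features also called for the difference of the ammonium responses, then 2 and 2 called in both ammonium comparisons. The comparison, lists and naming rule were chosen with earlier results of these data known. The number of arrays limits the precision. Alternatives were other normalizations, filters, moderation, weights and sets of arrays.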

Additional observations from a re-analysis of the deposited data

Results flagged for a closer look

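For 6 of the 12 named features the ammonium change with glucose differed from that without glucose by the test of the difference itself (limma). The difference was 1.26 for paxillus_3701 (SE 0.11, adjusted p = 0.000638), 1.01 for paxillus_3389 (SE 0.10, adjusted p = 0.00121) and 0.87 for paxillus_6405 (SE 0.13, adjusted p = 0.0122). It was -1.42 for paxillus_11908 (SE 0.19, adjusted p = 0.00648), -1.30 for paxillus_9370 (SE 0.23, adjusted p = 0.0238) and -1.06 for paxillus_12995 (SE 0.15, adjusted p = 0.00823). Over all features the difference was called for 0.737%. paxillus_3389, paxillus_6405, paxillus_11908 and paxillus_12995 were named because this test had passed, so their passing is no further result. paxillus_3701 and paxillus_9370 were named as the largest rise and the largest fall with glucose. That change is part of the difference, so their choice favours a large difference too. Groups of 3 arrays were too small to test for a single array far from the others.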

How the results depend on the processing

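Over 17 alternatives the count of 597 features stayed within 1.5 times in 12, and was 1394 with array weights, 99 with a log2 fold minimum of 0.25 in the test, and 326 to 473 without 1 array. The 29 changes of at least 1 numbered between 23 and 33 under all 17. The share of rises among calls was 60.6%, and 59.3% to 59.5% after cyclic loess, quantile normalization or scaling to the 75th percentile. The count of 41 for OM+N minus OM was 81 without the dimmest 25%, 72 with an intensity trend and robust moderation, 320 with array weights, 3 in a fit to the arrays of both groups alone, and 21 to 132 without 1 array. When OM replicate 2 was left out together with OM+N replicate 1, 53 features were called, with 54.7% rises in place of 26.8%. The count of 90 for the difference of the responses was 59 after quantile normalization, 144 with an intensity trend and robust moderation, 528 with array weights, and 25 to 103 without 1 array. The cause of these moves was not tested. The labels do not say that a replicate number marks a shared culture, day or batch, so the numbers were not taken as pairs. Same-numbered arrays of OM+G and OM+N+G deviated in opposite directions (r of -0.14, -0.20 and -0.31). Of 18 same-numbered pairs over all groups 4 exceeded 0.1 (r from -0.31 to 0.43). With the replicate block the counts were 529, 47 and 64 in place of 597, 41 and 90. The named changes kept direction and call in 201 of 202 values; paxillus_12995 missed with the fold minimum (adjusted p = 0.0510). Of 250 values of the named differences, alternatives added after seeing the data, 233 kept their side, 7 lost the call (all paxillus_9370) and 10 gained it (paxillus_6443, paxillus_1285, paxillus_6442 and paxillus_9755). paxillus_3389 and paxillus_12995 have no value without the dimmest 25%, to which they belong.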

Other observations

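The mean over the 12 arrays was under 6, near the level of the random-sequence control, for 715 features. Of these, 7 were called between OM+G and OM+N+G (0.979%, against 4.89% of all features), 3 upward and 4 downward. The largest change among features not called also lay there. paxillus_13634 read 4.07, 5.04 and 3.81 in OM+G and 4.42, 6.39 and 5.75 in OM+N+G, a change of 1.21 (SE 0.41, limma adjusted p = 0.135), and its groups overlapped.

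The spread within a group was smallest in OM+G. The median over features of the SD was 0.062 for OM+G and 0.077 for OM+N+G, against 0.101 for OM and 0.084 for OM+N (log2, n = 3), which was not tested.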
